A study of Caenorhabditis elegans with 4 samples.

Results

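The genes described here are 10 genes of the autophagy pathway, lgg-1, lgg-2, bec-1, atg-7, atg-9, atg-18, atg-16.2, unc-51, sqst-1 and epg-2, taken by name for their known role, with earlier results of these data known. All 10 were found among the 17118 genes that have a probe set of their own, and they are read by 14 of the 22548 probe sets compared. The arrays carry RNA of whole N2 (wild type) worms collected on day 8 of adulthood, 2 arrays of worms given rifampicin (RIF) and 2 arrays of worms given only DMSO, the solvent of the drug. All worms, in both groups, were cultured in liquid on heat-killed OP50 bacteria carrying an ampicillin resistance plasmid. The culture held carbenicillin and amphotericin B, and food was given again on day 5. FuDr was added as a 0.6 mM solution and was thus more dilute in the culture itself. FuDr stops DNA synthesis and so prevents progeny. The labels of the arrays state neither the dose of RIF nor the number of worms behind an array. A tissue field of the same labels speaks of RNAi (a control RNAi on the DMSO arrays and idr-1 on the RIF arrays), which disagrees with every other label and was not used for grouping.

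Autophagy encloses cytoplasm, organelles or protein aggregates in a double membrane, the autophagosome, which then fuses with the lysosome. UNC-51, the worm counterpart of the yeast kinase Atg1, starts the process, and BEC-1 belongs to the lipid kinase complex that marks the growing membrane. ATG-9 and ATG-18 bring in and organise membrane, ATG-7 and ATG-16.2 take part in attaching the ubiquitin-like proteins LGG-1 and LGG-2 to it, and SQST-1 and EPG-2 connect cargo to those proteins. In C. elegans the pathway is known for clearing maternal protein granules in embryos and for being needed by several long-lived mutants, and here only transcript levels were measured, not autophagic activity.

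The values are log2 RMA values, a scale on which a difference of 1 is a 2-fold change, and each probe set is read against itself only. The median over all probe sets was 1.90 and 1.85 on the RIF arrays and 1.82 and 1.82 on the DMSO arrays. Probe sets for 8 transcripts foreign to the worm ranged up to 1.62, which is taken here as the level of an absent transcript. RNA integrity was not even between arrays. For 4 control transcripts of the worm, probe sets at the 5′ and 3′ ends were compared, since the difference drops as RNA breaks down. Its median was -2.39 and -2.37 on the RIF arrays, and -1.68 in DMSO replicate 1 and -3.19 in DMSO replicate 2. Of the markers of body wall muscle, 3 of 4 were lower with RIF at the study's threshold, as were 1.53% of all probe sets. The remaining muscle marker, unc-22, was within the range of absent transcripts. The 8 markers of the germ line all read lower. All 3 markers of the hypodermis read lower as well, with col-19, a cuticle collagen, at -3.77 and past the threshold. On the brightest probe set of each gene, all 6 markers of neurons read higher, with a median of 0.37. Of these, unc-31 (0.03) was within the range of absent transcripts. The intestine was mixed, with gtl-1 (1.05) and vha-6 (-1.23) past the threshold in opposite directions. On such probe sets the 2 markers of the pharynx and the 3 of sperm read lower without passing it. The groups overlapped for myo-2 of the pharynx and for all 3 markers of sperm. The sperm markers spe-11 and gsp-3 were within the range of absent transcripts. Fewer cells of a type and less RNA per cell cannot be told apart in RNA of whole worms.

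None of the 10 autophagy genes passed the study's threshold, an unadjusted p under 0.05 with at least a 2-fold change, in either direction on its main probe set, the brightest one that names the gene alone. Over all probe sets, 1.14% passed it as higher with RIF and 1.53% as lower. None of the 10 passed an unadjusted p under 0.05 without a fold limit either, which 4.12% of all probe sets did as higher and 4.35% as lower (6.5% and 7.62% of the 12249 probe sets with a mean above the level of absent transcripts). Adjusted p-values of the main probe sets, from limma with Benjamini-Hochberg adjustment, ran from 0.643 to 0.998. The log2 differences between RIF and DMSO ran from -0.39 for epg-2 to 0.45 for bec-1, with 8 of the 10 above 0 and a median of 0.23, beside a median of 0.03 over all probe sets. That median was -0.001 without RIF replicate 2, so its position above 0 rests on that array, and 0.07 with the arrays centred by their ribosomal protein genes. For 7 of the 10 main probe sets the 95% interval of the difference lay wholly within a 2-fold change either way, and for bec-1, sqst-1 and epg-2 it did not. Over all 14 probe sets this held for 9. Among the 7 genes is atg-18, whose second probe set had an interval of -0.97 to 2.04, so a 2-fold change is not excluded for it.

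**Figure D1:**
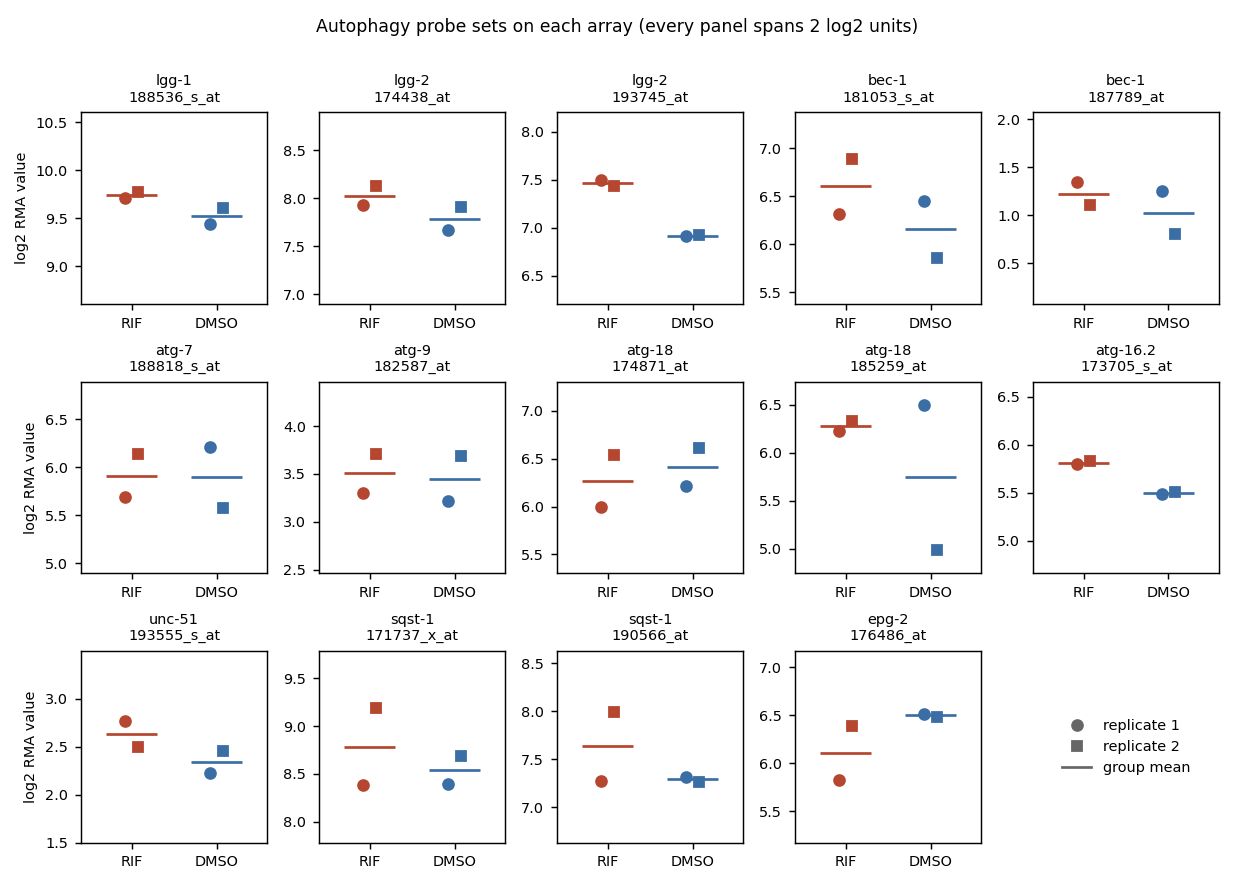
Log2 RMA value of the 14 autophagy probe sets on each array, RIF in red and DMSO in blue, with replicate 1 as a circle, replicate 2 as a square and the group mean as a line. The RIF arrays lie above both DMSO arrays for lgg-1, lgg-2 (both probe sets), atg-16.2 and unc-51, and below them for epg-2.

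LGG-1 and LGG-2 are the worm relatives of yeast Atg8, the ubiquitin-like proteins that are attached to the autophagosomal membrane and by which autophagosomes are usually counted. The probe set of lgg-1 (C32D5.9) read 9.71 and 9.78 on the RIF arrays, against 9.44 and 9.60 on the DMSO arrays. Both RIF arrays were above both DMSO arrays, by a mean of 0.23 (standard error 0.15, 95% interval -0.19 to 0.64), and limma's adjusted p was 0.742. With ribosomal protein centring the difference was 0.07. The ending of its name marks probes that may also match other transcripts. The same holds for the main probe sets of bec-1, atg-7, atg-16.2, unc-51 and sqst-1.

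The gene lgg-2 (ZK593.6) is read by 2 probe sets, and on both the RIF arrays were the higher ones. The main one had values of 7.93 and 8.12 with RIF and 7.67 and 7.90 with DMSO, a difference of 0.24 (standard error 0.17, adjusted p = 0.764 from limma). The second one had 7.50 and 7.44 with RIF and 6.91 and 6.92 with DMSO, a difference of 0.55 (standard error 0.14), or 1.47-fold. It was the single probe set among the 14 whose 95% interval, 0.17 to 0.93, left out 0. Its unadjusted p from limma was 0.0151 and its adjusted p 0.501, and with the mean of both probe sets the gene read 0.40 higher (unadjusted p = 0.0454). The differences of the main and second probe sets stayed above 0 with each array left out, between 0.12 and 0.36 and between 0.52 and 0.59. The unadjusted p of the second was above 0.05 in limma without RIF replicate 1 (0.0662) or RIF replicate 2 (0.0517), with ribosomal protein centring (0.0820), with the filter on level (0.0763) and with the trend and robust prior (0.0562). With ribosomal protein centring the main and second probe sets read 0.08 and 0.39.

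ATG-7 activates the ubiquitin-like proteins before they are attached, and ATG-16.2 belongs to the complex that directs them to the membrane. The probe set of atg-16.2 (K06A1.5) had the tightest replicates of the main probe sets, with 5.80 and 5.83 on the RIF arrays and 5.49 and 5.51 on the DMSO arrays. The difference of 0.31 was larger than the gap between replicates in either group (standard error 0.14, 95% interval -0.06 to 0.69), and its adjusted p was 0.643 in limma. With the methods' t-test, which takes the spread from this probe set alone, the unadjusted p was 0.00278 (smallest adjusted p among the 10 genes 0.704). With each array left out, the difference lay between 0.30 and 0.33, and with ribosomal protein centring it was 0.15.

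By contrast, atg-7 (M7.5) read 5.69 and 6.14 with RIF, against 6.21 and 5.57 with DMSO. The groups overlapped fully and their means differed by 0.02 (95% interval -0.82 to 0.86, adjusted p = 0.998 from limma). Its sign turned with the array left out, between -0.30 and 0.34, so no direction can be given for atg-7.

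UNC-51 is the kinase that starts autophagosome formation and was first found through uncoordinated mutants with defects in axons. The probe set of unc-51 (Y60A3A.1) read 2.77 and 2.49 with RIF, against 2.23 and 2.45 with DMSO, not far above the level of absent transcripts. The groups were separated only by the gap between 2.49 and 2.45, with a difference of 0.29 (standard error 0.18, adjusted p = 0.728 from limma). It was 0.15 without RIF replicate 1, 0.18 without DMSO replicate 1 and 0.13 with ribosomal protein centring.

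BEC-1, the worm Beclin 1, works in the complex of the lipid kinase VPS-34. The main probe set of bec-1 (T19E7.3) read 6.32 and 6.89 with RIF, against 6.45 and 5.86 with DMSO. The highest value was in RIF replicate 2 and the lowest in DMSO replicate 2, and the groups overlapped. The difference of 0.45 was the largest upward one among the 10 main probe sets, with a standard error of 0.32 and a 95% interval of -0.42 to 1.32 (adjusted p = 0.762 from limma). It was 0.16 both without RIF replicate 2 and without DMSO replicate 2. The second probe set of bec-1 had 1.35 and 1.11 with RIF and 1.25 and 0.80 with DMSO, all within the range of absent transcripts, and gives no usable level.

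ATG-9 is the membrane-spanning protein of the pathway, and ATG-18 binds the lipid made by the VPS-34 complex. The probe set of atg-9 (T22H9.2) read 3.31 and 3.71 with RIF, against 3.22 and 3.69 with DMSO. In both groups replicate 2 was the higher one, by 0.40 and 0.47, while the groups differed by 0.06 (95% interval -0.64 to 0.75, adjusted p = 0.978 from limma).

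The 2 probe sets of atg-18 (F41E6.13) did not agree. On the main one the values were 6.00 and 6.53 with RIF and 6.21 and 6.61 with DMSO, a difference of -0.15 (standard error 0.27, adjusted p = 0.924 from limma). On the second one they were 6.23 and 6.33 with RIF and 6.50 and 4.98 with DMSO, a difference of 0.54 (standard error 0.55, adjusted p = 0.845 from limma). There the DMSO replicates lay 1.52 apart, the widest gap within a group over all 14 probe sets, with the low value in DMSO replicate 2, the array with the lowest 5′ minus 3′ difference. The part of RNA integrity in that value was not tested. Without DMSO replicate 1 the second probe set read 1.30 higher with RIF and passed the study's threshold, and without DMSO replicate 2 it read 0.22 lower. No direction can therefore be given for atg-18.

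**Figure D2:**
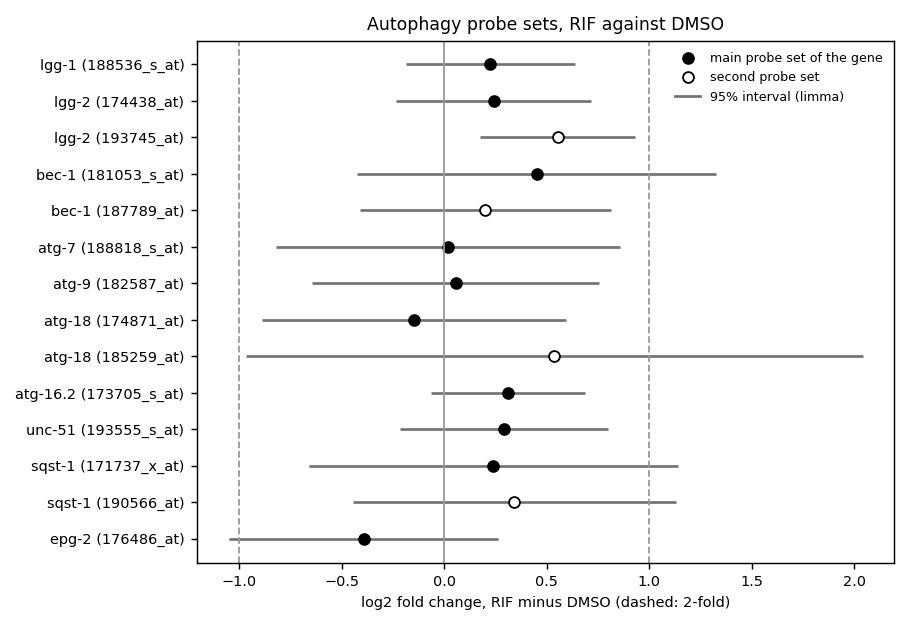
Log2 fold change, RIF minus DMSO, of each autophagy probe set with limma's 95% interval, main probe sets filled and second probe sets open, with dashed lines at a 2-fold change. Every interval includes 0 except that of the second lgg-2 probe set (0.17 to 0.93), and the widest is that of the second atg-18 probe set.

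SQST-1, the worm p62, binds ubiquitylated cargo and is itself degraded by autophagy, so that its protein accumulates when the pathway is blocked. The main probe set of sqst-1 (T12G3.1) read 8.38 and 9.18 with RIF, against 8.40 and 8.69 with DMSO, and the second read 7.27 and 7.99 with RIF, against 7.32 and 7.27 with DMSO. RIF replicate 2 was the highest array on both, by 0.80 and 0.72 over RIF replicate 1, whereas RIF replicate 1 was at or below the level of the DMSO arrays. The differences of 0.24 and 0.34 had standard errors of 0.33 and 0.29 (adjusted p = 0.893 and 0.800 from limma), and without RIF replicate 2 they turned to -0.16 and -0.02. The level of sqst-1 thus differed more between the RIF arrays than between the groups.

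EPG-2 is a coiled-coil protein, known in C. elegans, that links PGL protein granules to LGG-1 so that they are removed from the somatic cells of embryos. The probe set of epg-2 (Y39G10AR.10) read 5.83 and 6.39 with RIF, against 6.52 and 6.49 with DMSO. It was the single main probe set with both RIF arrays below both DMSO arrays. The difference was -0.39, a level 1.31-fold lower with RIF (standard error 0.24, 95% interval -1.05 to 0.26, adjusted p = 0.713 from limma). Without RIF replicate 2 it was -0.68 with an unadjusted p of 0.0381, and without RIF replicate 1 it was -0.11.

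On the main probe sets, both RIF arrays were above both DMSO arrays for 4 of the 10 genes (lgg-1, lgg-2, atg-16.2 and unc-51) and below them for 1 (epg-2). Of all probe sets, 22.2% were separated in this way as higher with RIF and 15.7% as lower, and of those above the level of absent transcripts 20.6% and 21.4%. The count for the 10 genes is too small to be set apart from these shares. RIF replicate 2 was the highest of the 4 arrays for 6 of the 10 genes and the lowest for none. The median deviation of the 10 genes from their own means was -0.12 in RIF replicate 1 and 0.21 in RIF replicate 2, against -0.18 in DMSO replicate 1 and -0.02 in DMSO replicate 2, while over all probe sets above the level of absent transcripts it was -0.04 and 0.01 on the RIF arrays and 0.01 and 0.003 on the DMSO arrays.

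**Figure D3:**
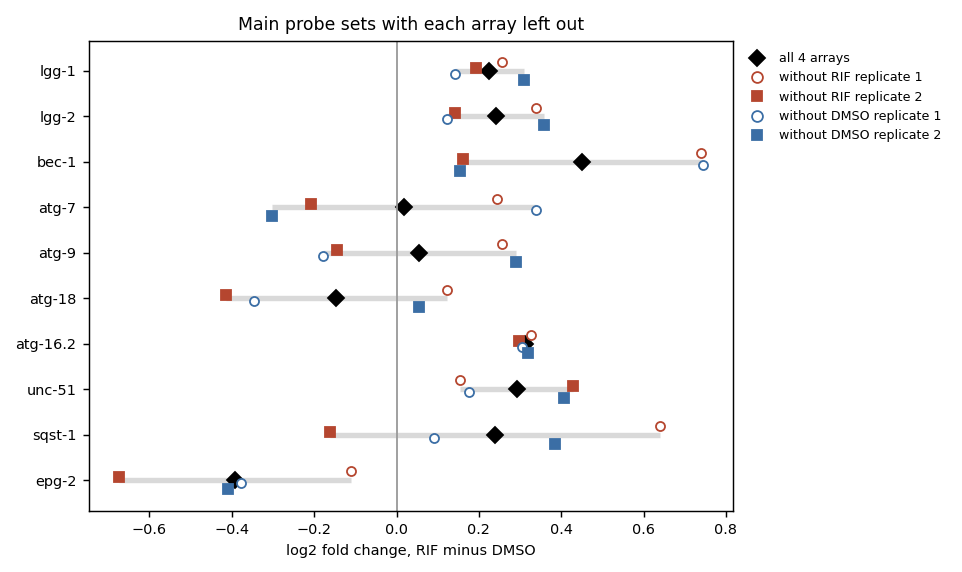
Log2 fold change, RIF minus DMSO, of the main probe set of each autophagy gene with all 4 arrays (diamond) and with each array left out in turn. The values of lgg-1, lgg-2, bec-1, atg-16.2 and unc-51 stay above 0 and that of epg-2 below 0, whereas atg-7, atg-9, atg-18 and sqst-1 lie on both sides of 0.

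The other genes of the pathway were taken from lists by role, which name 55 genes besides the 10. Of these, 52 were measured and none passed the study's threshold on its main probe set in either direction. An unadjusted p under 0.05 was reached by prmt-1, allo-1 and pha-4 as higher with RIF and by pgl-3 as lower. That is 3 and 1 of 52, beside 4.12% and 4.35% of all probe sets. Of those above the level of absent transcripts it was 6.5% and 7.62%. None of the 52 passed an adjusted p in limma, and their median difference was 0.02, with 29 above 0 and 23 below.

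The genes acting with UNC-51 at the start of the pathway read close to their DMSO level or above it. The largest difference was that of epg-9, the worm ATG101, with both RIF arrays above both DMSO arrays (0.58, adjusted p = 0.626 from limma), followed by epg-7, a scaffold protein, at 0.24. Of the partners of BEC-1, vps-34, the lipid kinase itself, read 0.23 higher, and epg-8, the worm ATG14, read 0.09 lower on its main probe set and 0.64 lower, with no overlap between the groups, on its second (adjusted p = 0.635 from limma). Besides atg-9 and atg-18, the largest differences among membrane genes were those of epg-4, which encodes a membrane protein of the endoplasmic reticulum (0.52), and atg-2, a lipid transfer protein that works with ATG-18 (0.41). The value of epg-4 was 1.22 and past the study's threshold without DMSO replicate 1, and -0.18 without DMSO replicate 2, so no direction can be given for it. None of these genes passed the threshold with all arrays.

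In the conjugation machinery, atg-4.2, a protease that processes LGG-1 and LGG-2, read 2.01 and 2.20 with RIF, against 2.93 and 2.22 with DMSO (-0.47, adjusted p = 0.714 from limma), and atg-16.1, the paralogue of atg-16.2, read 0.21 higher. The median over the 11 genes of this list, the 4 named above included, was 0.04. The genes of delivery to the lysosome had a median of -0.06 over 14 genes. Their largest differences were -0.47 for vps-33.1, part of the tethering complex of the lysosome, and -0.39 for ccz-1, which helps recruit the RAB-7 GTPase to endosomes. On its main probe set, no gene of either list reached an unadjusted p under 0.05 in limma.

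Among the regulators, the largest differences were those of mxl-2, a Max-like factor, at 0.78 (adjusted p = 0.681 from limma), and pha-4. PHA-4, the worm FOXA factor, is needed for autophagy in food-restricted worms. Its main probe set read 3.30 and 3.35 with RIF, against 2.56 and 2.82 with DMSO, a difference of 0.63 with a 95% interval of 0.18 to 1.09 (unadjusted p = 0.0180, adjusted p = 0.510 from limma). The second probe set of pha-4 gave 0.28, and the unadjusted p of the main one was above 0.05 without RIF replicate 1 (0.0749), RIF replicate 2 (0.0870) or DMSO replicate 1 (0.0550) in limma. After its values were seen, hlh-30 is named too, since HLH-30, the worm TFEB, is the best known transcriptional activator of autophagy genes. Its main probe set read 4.18 and 3.91 with RIF, against 3.01 and 4.12 with DMSO, so that DMSO replicate 1 alone was low. The difference was 0.48 (standard error 0.42, adjusted p = 0.806 from limma) with all arrays, 1.04 and past the study's threshold without DMSO replicate 2, and -0.07 without DMSO replicate 1. The value of mxl-2 was 1.32 and past the threshold without DMSO replicate 2, and 0.23 without DMSO replicate 1. For mxl-3, another Max-like factor and also named after its values were seen, it was 0.41 with all arrays (adjusted p = 0.922 from limma), 1.45 and past the threshold without DMSO replicate 1, and -0.63 without DMSO replicate 2. The sizes of all 3 on their main probe sets, and the signs of hlh-30 and mxl-3 there, thus rest on which DMSO array is kept. Another hlh-30 probe set read 3.29 and 2.95 with RIF, against 2.27 and 2.85 with DMSO. Its difference of 0.56 (standard error 0.27, adjusted p = 0.661 from limma) stayed above 0 with each array left out, between 0.27 and 0.85. The remaining hlh-30 probe set had group means within the range of absent transcripts. Also named after their values were seen are the TOR and AMPK genes in this list. On their main probe sets let-363, the TOR kinase, and aak-2, a catalytic subunit of AMPK, read -0.44 and 0.33. On their second ones they read -0.05 and -0.11. Of the others, rsks-1 read -0.05, raga-1 -0.10, ragc-1 -0.05 and aak-1 0.37. For daf-15, the worm Raptor, the main probe set read -0.41 and the second -1.06, which passed the study's threshold (adjusted p = 0.576 from limma) with 1.73 and 1.97 on the RIF arrays and 3.39 and 2.43 on the DMSO arrays. It did not pass without RIF replicate 1 (-0.94), RIF replicate 2 (-1.18) or DMSO replicate 1 (-0.58), and without DMSO replicate 2 it was -1.54. The RIF values of this probe set lie not far above the level of absent transcripts.

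**Figure D4:**
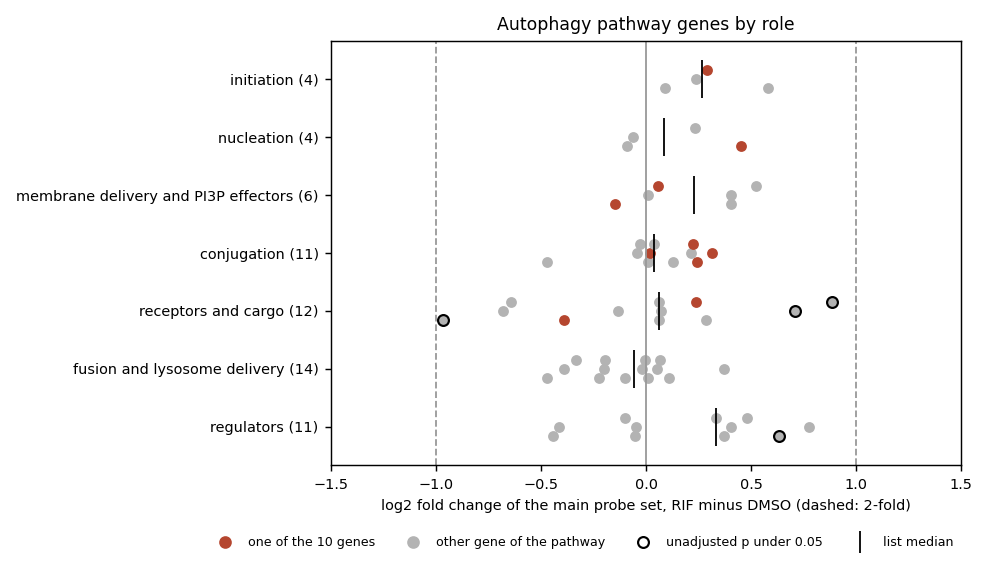
Log2 fold change, RIF minus DMSO, of the main probe set of 62 autophagy genes by role, with the 10 genes in red, the other genes in grey, an outline for an unadjusted p under 0.05 and a bar at the median of each list. No gene reached a 2-fold change, and the widest spread was among receptors and cargo, from -0.97 (pgl-3) to 0.88 (prmt-1).

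On main probe sets, receptors and cargo held the largest differences of the pathway, in both directions. Closest to EPG-2 in function are sepa-1, pgl-1 and pgl-3. SEPA-1 is the receptor that brings the germ granule proteins PGL-1 and PGL-3 to autophagosomes in embryos. The probe set of pgl-3 read 4.16 and 4.84 with RIF, against 5.51 and 5.42 with DMSO, a difference of -0.97 with a 95% interval of -1.72 to -0.21 (unadjusted p = 0.0234, adjusted p = 0.530 from limma). It passed the 2-fold limit without RIF replicate 2 (-1.31) and also after centring, either on the array medians (-1.03) or on ribosomal protein genes (-1.13). It was -0.63 without RIF replicate 1, and its unadjusted p from limma was above 0.05 without DMSO replicate 1 (0.103) or DMSO replicate 2 (0.0848). The values of pgl-1 were 6.11 and 6.49 with RIF and 7.22 and 6.75 with DMSO (-0.68, unadjusted p = 0.0524 and adjusted p = 0.598 from limma), and those of sepa-1 were 2.66 and 2.57 with RIF and 2.94 and 3.57 with DMSO (-0.64, adjusted p = 0.625 from limma). Like epg-2, all of them had both RIF arrays below both DMSO arrays. Of probe sets above the level of absent transcripts, 21.4% were separated in this way. Of the 12 receptor and cargo genes measured, 4 were separated as lower on main probe sets and 2 as higher. The genes sepa-1 and pgl-1 are named after their values were seen.

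Germ line markers read lower on the same arrays, none with an adjusted p under 0.05 in limma. On main probe sets, all 8 such genes, pgl-1 and pgl-3 among them, read lower with RIF, with a median of -0.54. There 6 had no overlap between the groups and 1, pgl-3, had an unadjusted p under 0.05. The second probe set of the marker him-3 had a lower p than pgl-3. It read -0.999 with no overlap (unadjusted p = 0.0020, adjusted p = 0.336 from limma). The second probe sets of the markers glh-1 and mex-5 read -0.37 and -0.30, with overlap. Without RIF replicate 1 the main probe set of glh-1 read -0.03, against -0.36 with all arrays. Of all probe sets, 15.7% were separated as lower, and 21.4% of those above the level of absent transcripts. The summed level of the 8 markers on main probe sets was 9.77 and 10.20 on the RIF arrays and 10.63 and 10.38 on the DMSO arrays (log2). None of the 8 was within the range of absent transcripts there. RIF replicate 1 was the lowest array for this sum, of which pgl-1 and pgl-3 are part. It was the lowest array for epg-2, pgl-1 and pgl-3 too, whereas RIF replicate 2 was the lowest for sepa-1. The part of germ line RNA in the values of epg-2, sepa-1, pgl-1 and pgl-3 was not tested.

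The opposite direction was seen for prmt-1 and allo-1. PRMT-1, also called EPG-11, is an arginine methyltransferase that modifies PGL proteins and affects their removal by autophagy. Its main probe set read 9.22 and 9.01 with RIF, against 8.42 and 8.05 with DMSO, a difference of 0.88, or 1.85-fold (95% interval 0.33 to 1.44, unadjusted p = 0.0110, adjusted p = 0.489 from limma), and its second one gave 0.81. It passed the study's threshold without DMSO replicate 1 (1.07), and without RIF replicate 1 (0.78) its unadjusted p was 0.0738 in limma. ALLO-1 is the receptor by which paternal organelles are removed in the embryo. Its probe sets read 8.11 and 8.31 with RIF, against 7.41 and 7.59 with DMSO, and 8.18 and 8.36 with RIF, against 7.35 and 7.30 with DMSO. The differences were 0.71 and 0.94 (unadjusted p = 0.0117 and 0.00308, adjusted p = 0.489 and 0.377 from limma), that is 1.64-fold and 1.92-fold, on probe sets whose endings mark shared probes. Without RIF replicate 2 the unadjusted p of the main one was 0.0645 in limma. Without RIF replicate 1 the second allo-1 probe set read 1.03 and passed the threshold. The gene allo-1 is named after its values were seen.

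**Figure D5:**
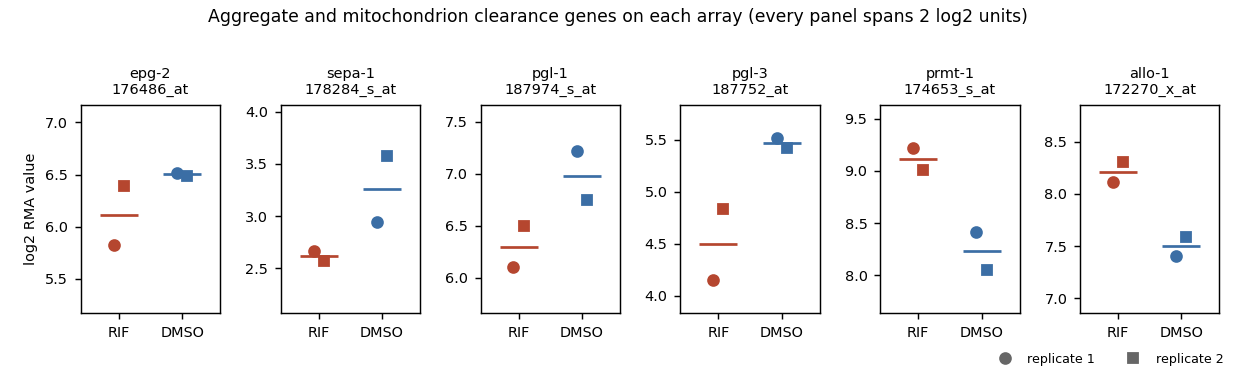
Log2 RMA value on each array of epg-2, of the granule receptor sepa-1, of the germ granule genes pgl-1 and pgl-3, and of prmt-1 and allo-1, RIF in red and DMSO in blue, circles for replicate 1, squares for replicate 2 and lines for group means. Both RIF arrays lie below both DMSO arrays in the first 4 genes and above them in prmt-1 and allo-1.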

How the data were processed

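RNA of whole worms was measured on Affymetrix C. elegans arrays, 2 of RIF-treated and 2 of DMSO-treated worms, grouped by their titles. The authors deposited a log2 value per probe set and array. According to the processing notes of the submitters these come from RMA (Affymetrix Expression Console), which corrects background, forces a common distribution on the arrays and summarises the probes of a set, whereas the paper names GeneSpring GX. Forcing a common distribution can hide a shift of all transcripts, and the versions of RMA and Expression Console are not given in the sources used here. The number of arrays limits the precision.

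The table holds 22625 probe sets. Without the 77 controls, 22548 were compared, RIF minus DMSO and two-sided, by the moderated test of limma 3.58.1 run under R 4.3.3 (no trend, 2.11 prior degrees of freedom, no filter on level), with Benjamini-Hochberg adjustment over all of them. In all, 8 probe sets had an adjusted p under 0.05. An exact permutation test of 2 against 2 arrays cannot give a two-sided p under 0.333 and was not used. The array annotation names 1 gene for 20766 probe sets, of which 20701 were matched to current symbols, several for 887 and none for 895. A gene's main probe set is the brightest that names it alone. Named are the 10 genes with every probe set and, among the other listed genes, those past the study's threshold and the 2 of each list with the largest difference. The listed genes pink-1, vamp-7 and nhr-62 were not analysed here.

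The members and lists were chosen with earlier results of these data known. The fit was tested on simulated data. Alternatives were a block for the replicate number, omission of single arrays, quantile normalization, centring on the median or on ribosomal protein genes, a filter on level, a trend with a robust prior, the methods' t-test (unpaired, equal variances), the mean over probe sets and probe sets without endings for shared probes.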

Additional observations from a re-analysis of the deposited data

How the results depend on the processing

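On main probe sets or gene means, 0 of the 10 genes passed the study's threshold as higher and 0 as lower under every alternative run. No gene of the 10 passed an adjusted p on them either. The second atg-18 probe set, outside this count, read 1.30 higher with RIF without DMSO replicate 1. At an unadjusted p under 0.05, the count of genes higher was 1 with the methods' t-test (atg-16.2) and 1 with the mean over probe sets (lgg-2), and the count lower ranged from 0 to 1 with 1 array left out (epg-2 without RIF replicate 2). The median over the 10 genes ranged from -0.0014 to 0.30 with 1 array left out, and the lowest value is that without RIF replicate 2. Among the other pathway genes, 0 to 3 were higher and 0 to 1 lower at the study's threshold with 1 array left out, and 1 was lower with median centring or ribosomal protein centring (pgl-3). Differences that changed sign were those of atg-7, -0.040 with median centring, -0.14 with ribosomal protein centring and -0.30 to 0.34 with 1 array left out, and atg-9, -0.0028, -0.10 and -0.18 to 0.29. For atg-18 the mean over both probe sets was 0.20. With 1 array left out, the main atg-18 probe set gave -0.41 to 0.12 and the second -0.22 to 1.30. With 1 array left out, sqst-1 ranged from -0.16 to 0.64 and from -0.019 to 0.70, and the dim second probe set of bec-1 from -0.022 to 0.42. The cause of these changes was not tested. Ribosomal protein centring moved the median of all probe sets to -0.13, against 0.03 as deposited. The replicate numbers are not said to mark a shared batch, and the deviations of same-numbered arrays correlated at 0.10 over all probe sets. A replicate block cannot move a difference in this balanced design, where the median over the 10 genes is 0.23, and with it none of the 10 passed the threshold (adjusted p = 0.564 for the second lgg-2 probe set, from limma). Where a group is down to 1 array, its spread is taken from the other group. Without endings for shared probes 6 of the 10 genes remained.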
